A study of Mus musculus with 6 samples.

Results

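The introns described here are the 1783 retained-intron events of the deposited splicing table whose intron is longer than 200 nt. They were chosen by length alone, as the distance between the upstream exon's end and the downstream exon's start, and no expression or splicing value entered the choice. They lie in 1357 genes and make up 1783 of 40961 splicing events of 5 types in the table. Their lengths ran from 201 to 8856 nt among those that could be tested. Introns of 201 nt, just inside the limit, include those in Nudt14, Neurl4, Snph and Srsf5. Introns of 200 nt, just outside it, include those in Wdr45, Btbd9 and Rnpepl1. The series holds 6 RNA-seq libraries from the hippocampus of male wild-type C57BL/6J mice that were injected at 8 weeks of age with adeno-associated virus into CA1 on both sides. Mice of the 3 control libraries received a control shRNA, and those of the 3 libraries labelled L-DL KD received shRNAs against the long isoform of hnRNP DL (L-DL), an RNA-binding protein. The paper gives a lower viral titre for the L-DL shRNAs than for the control shRNA, at the same volume. The shRNA and the viral dose thus cannot be told apart in these groups. The shRNAs were driven by H1 promoters, which are not restricted to a cell type, and a CamkIIα promoter in the same vector drove only the green reporter. GEO's labels call the controls wild type and call the L-DL KD mice a knockdown in one field and a homozygous mutant in another, and the time from injection to dissection is not given in the sources used here. Nothing in the labels says whether the tissue of each library came from 1 mouse or several, so p-values measure the spread between these samples.

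Splicing normally removes introns before a messenger RNA leaves the nucleus. An intron that stays in a polyadenylated transcript often brings a stop codon into the reading frame, and such RNAs are either held in the nucleus, in part at nuclear speckles, or degraded after export by nonsense-mediated decay. In the brain, retained introns are also known as a reserve of transcripts that can be spliced later. Retention was measured as PSI, an estimate of the share of transcripts with the intron. PSI is the count of reads across the 2 exon-intron boundaries divided by an effective length of 298 nt, over the sum of that value and the count of reads across the spliced junction divided by 149 nt. A PSI of 1 means that no read joined the flanking exons, and a PSI of 0 that no read crossed a boundary.

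The data of a few introns are easier to follow with their sequence at hand. The first 2 are printed whole, 5′ to 3′, because both had boundary reads higher in every L-DL KD library than in every control and they differ in whether the reading frame meets a stop codon. Capitals mark that stop codon, TGA at intron base 2 in Camkv, and Arhgef25 has none. Sequences come from the GENCODE M21 transcripts that keep the intron, with GRCm38 coordinates.
Camkv intron 4, chr9:107945865-107946078, plus strand: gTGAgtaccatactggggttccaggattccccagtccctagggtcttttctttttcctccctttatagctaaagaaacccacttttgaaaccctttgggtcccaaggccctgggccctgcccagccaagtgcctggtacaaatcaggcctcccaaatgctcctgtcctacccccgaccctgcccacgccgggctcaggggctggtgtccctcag
Arhgef25 intron 14, chr10:127183410-127183648, minus strand: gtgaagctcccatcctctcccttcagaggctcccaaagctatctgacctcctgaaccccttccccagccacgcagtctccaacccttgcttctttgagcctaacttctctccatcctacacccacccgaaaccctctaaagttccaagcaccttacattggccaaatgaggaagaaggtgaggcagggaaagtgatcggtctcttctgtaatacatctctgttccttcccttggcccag
Splice sites of introns named below are shown with the exon's bases in capitals, the last 3 before the intron and the first 3 after it.
Camkv 5′ site: GCTgtgagt
Camkv 3′ site: caggggctggtgtccctcagGGC
Idh3g 5′ site: TCAgtaagt
Idh3g 3′ site: caccctctcccttcttccagCCT
The interval of 571 nt that the table lists as an Idh3g intron, chrX:73782104-73782674 on the minus strand, has an annotated exon of 12 nt inside it, chrX:73782298-73782309, which is part of the coding transcript Idh3g-201.
Idh3g exon of 12 nt: caacaaacaatt

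Library totals ranged from 16052529 to 17913064 counts over genes and from 6760349 to 7939931 junction counts over all events. Of the latter, 75856 to 87970 per library crossed a boundary of an intron longer than 200 nt and 169761 to 205266 joined its flanking exons. Hnrnpdl, the targeted gene, had 2862, 3120 and 2689 counts in the controls and 3939, 2680 and 2904 in L-DL KD, with a log2 fold change of 0.03 ± 0.12 (SE) and an adjusted p of 0.898 (edgeR quasi-likelihood test, Benjamini-Hochberg). The gene's counts over all isoforms thus did not separate the groups, and none of the tested introns lies in it. The paper reports the knockdown as a loss of L-DL protein on immunoblots of injected hippocampus, which these RNA counts do not measure. All 14 microglia markers rose, with summed levels of 2035 to 2572 CPM in the controls and 3992 to 5242 CPM in L-DL KD. Of 13 neuron markers 11 fell and 2 rose, with sums of 6525 to 6939 and 4516 to 5310 CPM. Astrocyte markers (2 higher and 4 lower of 10) and oligodendrocyte markers (2 higher and 1 lower of 10) moved less uniformly. In bulk tissue, fewer cells of a type and less RNA per cell cannot be told apart, and the part of these shifts in the intron results was not tested.

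A total of 1328 introns in 1034 genes (74.5%) had a mean of at least 20 junction counts per library and at least 1 of each form, and these were tested. The other 455 had a median of 13.8 counts per library. Most tested introns were retained at a low level in the controls. The median control PSI was 0.158, with quartiles of 0.0494 and 0.470. A PSI of at most 0.05 was found for 337 introns, of more than 0.5 for 320 (24.1%) and of more than 0.8 for 186. Another annotated intron overlaps 257 of the 320. For these, a PSI over 0.5 need not mean that most transcripts are unspliced. The lowest level in a highly counted intron was that of Rps3 intron 2, of 215 nt, with 0 to 2 boundary reads against 1193 to 1967 spliced reads in each library. Rps3 encodes a protein of the small ribosomal subunit. The 3 other introns at the bottom, in Wbp11, Dgcr8 and Mios, had no boundary read in any control. At the top stood Cd300lf and Nsmaf with no spliced read in any control, followed by Chtop, Ccnl2, Ptbp1 and Matk with mean control PSI from 0.990 to 0.996. Chtop and Ptbp1 are RNA-binding proteins and Ccnl2 is a cyclin that works with splicing kinases. In Cd300lf the L-DL KD libraries had 6, 0 and 4 spliced reads, and in Nsmaf 8, 2 and 0, so the groups overlapped.

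Control levels followed the intron's position in the annotated transcripts. The 1126 introns within the coding region had a median PSI of 0.120 and were over 0.5 in 14.4% of cases. The median was 0.473 for 31 introns in 5′ UTRs and 0.889 for 27 in 3′ UTRs. It was 0.833 for 115 introns that only a noncoding transcript splices, and 0.958 for 29 whose junction no annotated transcript has. Among coding introns, the last of the transcript had a higher median (0.195, 99 introns) than the others (0.118, 1027 introns). The 143 introns that a coding transcript keeps had a median of 0.557, and the remaining 1185 had 0.140.

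**Figure D1:**
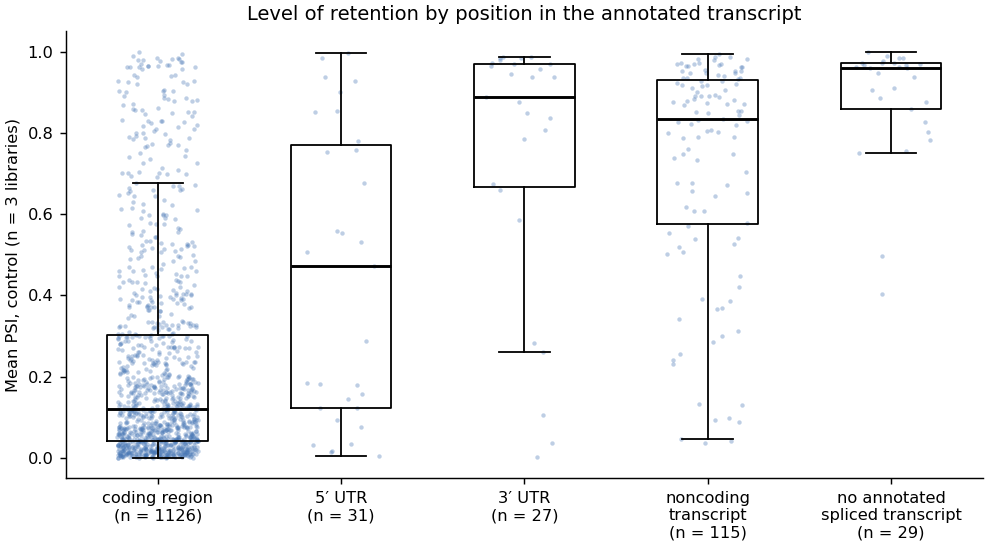
Mean control PSI (y axis, n = 3 libraries) of the 1328 tested introns longer than 200 nt, grouped by position in the annotated transcript; each point is an intron and boxes show the median, the quartiles and whiskers to the last point within 1.5 box lengths. Coding introns lie mostly near the bottom, with a median of 0.120, and introns in 3′ UTRs or in noncoding transcripts near the top, with medians of 0.889 and 0.833.

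Translation into the intron would meet a stop codon in 1090 of the 1126 coding introns. These had a median control PSI of 0.117, against 0.320 for the 36 introns without one, which were also shorter (median 276.5 nt against 592.5 nt). Neighbouring splice choices went with the level too. The 642 introns that another annotated intron overlaps had a median of 0.329, and the 686 with none had 0.0891. In 139 introns the gene's own annotation places a whole exon inside, as in Idh3g, and their median was 0.626. Length itself had hardly any relation to the control level (Spearman correlation across introns -0.0267), GC content a weak one (0.184) and junction counts a negative one (-0.225). All introns of 1 library share its reads, so these are descriptions of the set without a test. Introns of 201 to 300 nt had a median of 0.168, and those from 1204 nt upward 0.120.

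Splice sites were almost all of the common kind. GT-AG ends were found in 1301 introns (98.0%), GC-AG in 24, AT-AC in 2 and GT-AT in 1. The 5′ end of the minor-spliceosome class, searched as GTATCC or ATATCC in the first bases of the intron on the transcript's strand, occurred in 15 of the 1328 introns (1.13%), among them Lsm5, Exosc2, Myh9 and the AT-AC intron of Tcea2. The 5′ sites of Lsm5 and Tcea2 show the class.
Lsm5 5′ site: TCAgtatcc
Tcea2 5′ site: AGTatatcc
The median control PSI of these 15 was 0.133, none passed an unadjusted p under 0.05 in edgeR's test and 1 had groups that did not overlap. That intron, in Trafd1 (472 nt), had PSI of 0.263, 0.250 and 0.306 in the controls and 0.204, 0.226 and 0.223 in L-DL KD (adjusted p = 0.590).

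No shift of retention over the whole set was found. The median PSI of the 1328 introns was 0.146, 0.158 and 0.161 in the control libraries and 0.147, 0.161 and 0.161 in the L-DL KD libraries, listed here and below in the order of the splicing table. The difference was 0.0013 with an exact permutation p of 0.5 (two-sided, 3 against 3, smallest possible p 0.1). Pooled over introns, unspliced reads per unit length made up 16.6% ± 0.816 of the total in the controls and 16.3% ± 0.416 in L-DL KD (mean ± SD of 3 libraries each) (exact permutation p = 0.7). The 966 tested introns of 200 nt or less had medians of 0.123, 0.117 and 0.133 in the controls and 0.132, 0.134 and 0.146 in L-DL KD (exact permutation p = 0.2). The gap between long and short introns was 0.0305 ± 0.0094 for controls and 0.0191 ± 0.0072 for L-DL KD (mean ± SD, 3 libraries each), a difference of -0.0113 with an exact permutation p of 0.2. With a minimum of 10 or of 50 counts in place of 20 the difference was -0.0145 and -0.0056, each with an exact permutation p of 0.1, the smallest the design allows, so the libraries of the groups then did not overlap. The design cannot reach a p under 0.05.

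**Figure D2:**
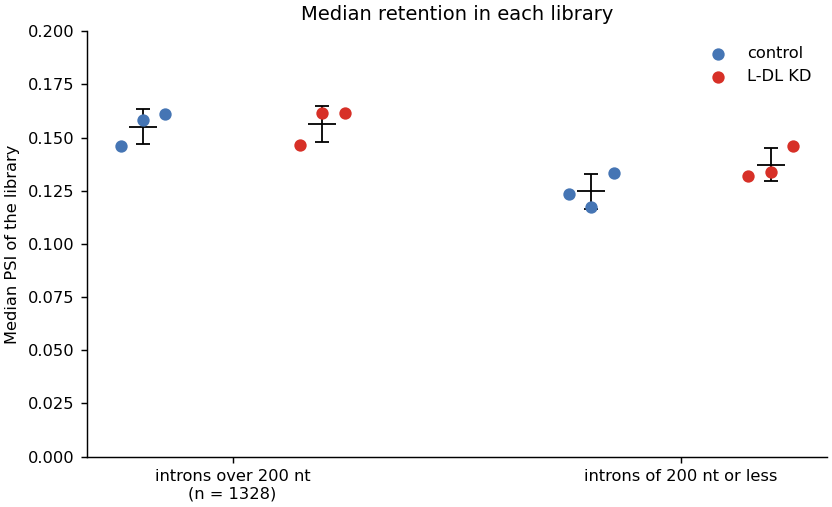
Median PSI (y axis) of each library over the 1328 tested introns longer than 200 nt and over the shorter tested introns; points are libraries, and bars are the mean ± SD of 3 libraries. The long introns of both groups cover nearly the same range, 0.146 to 0.161.

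Of the 1328 introns, 1 was higher and 1 was lower in L-DL KD at an adjusted p under 0.05 (edgeR's quasi-likelihood test on both forms, Benjamini-Hochberg over 18829 events). That is 0.0753% of the introns in each direction and 0.151% together, beside 0.069% higher, 0.186% lower and 0.255% together over all events tested. At an unadjusted p under 0.05, 63 introns were higher (4.74%) and 65 lower (4.89%), where all events gave 4.96% and 8.3%. In 122 introns (9.19%) every L-DL KD library lay above every control, and in 115 (8.66%) below, where all events gave 7.6% and 10.8%. The share of long introns with lower PSI was thus below that of all events by each of these counts. The share with higher PSI was slightly below it at an unadjusted p under 0.05, and above it by adjusted p and by groups apart. The adjusted counts rest on 1 intron in each direction, and none of these differences was tested. Among introns of 200 nt or less, 2 were higher (0.207%) and 0 lower (0%) at an adjusted p under 0.05, with 48 (4.97%) and 36 (3.73%) at an unadjusted p under 0.05, while skipped exons passed the unadjusted threshold in 17.9% of 10590 events. The median change of PSI in long introns was 0.0016, with quartiles of -0.0247 and 0.0302, and 174 introns differed by 0.1 or more.

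**Figure D3:**
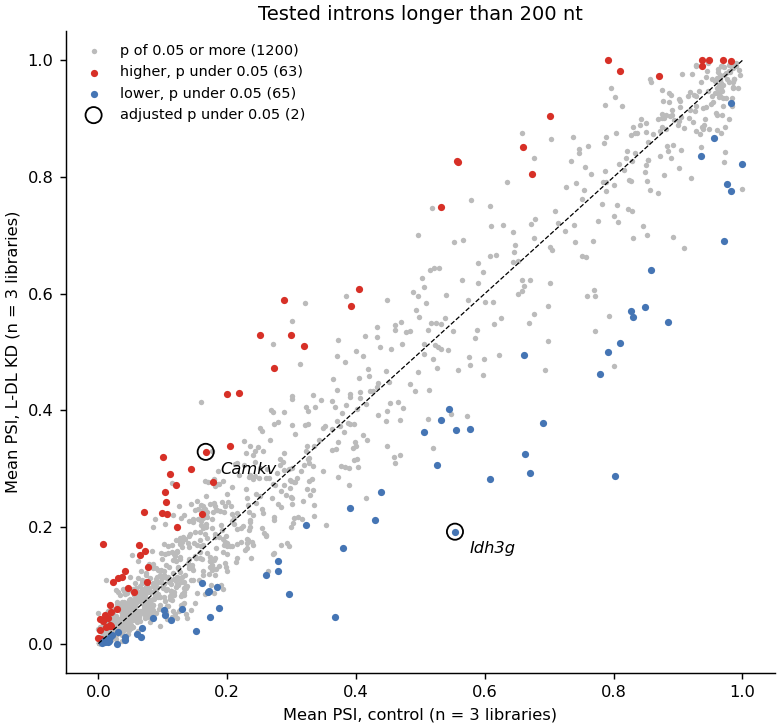
Mean PSI in L-DL KD (y axis) against mean PSI in controls (x axis) for the 1328 tested introns longer than 200 nt, n = 3 libraries in each group; the dashed line marks equal values. The 63 higher and 65 lower introns at an unadjusted p under 0.05 lie on both sides of the line at all levels, and only Camkv and Idh3g, circled, passed the adjusted threshold.

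The intron that rose was intron 4 of Camkv, which encodes a neuronal pseudokinase of the calmodulin kinase family found at synapses. The study itself names this intron, so it was not chosen independently of the study's result. Its PSI was 0.165, 0.177 and 0.158 in the controls and 0.299, 0.344 and 0.344 in L-DL KD. Every L-DL KD library lay above every control. Boundary reads numbered 228, 192 and 202 in the controls and 453, 491 and 398 in L-DL KD, and spliced reads 577, 445 and 540 against 531, 469 and 380. Junction CPM scales counts to the same junction total in each library. On that scale the mean boundary level went from 29.9 to 58.3, without overlap between groups. The mean spliced level went from 75.1 to 59.8, with overlapping groups. The log2 odds ratio was 1.29 ± 0.23 (SE), with an adjusted p of 0.0449. Camkv as a gene had a level of 537 ± 57.6 CPM for controls and 485 ± 23.9 CPM for L-DL KD (mean ± SD, 3 libraries each), with a log2 fold change of -0.15 and an adjusted p of 0.259. The 214 nt intron has no exon of Camkv inside and no other annotated intron overlaps it, and the reading frame meets the TGA printed above directly behind the 5′ splice site. The adjusted p was 0.179, 0.167 and 0.219 without the first, the second and the third listed control, 0.137 and 0.139 without the second and the third listed L-DL KD library, and 0.036 without the first.

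The intron that fell was the 571 nt interval of Idh3g, which encodes the gamma subunit of the mitochondrial NAD-dependent isocitrate dehydrogenase. Its PSI was 0.522, 0.656 and 0.483 in the controls and 0.233, 0.157 and 0.185 in L-DL KD, a log2 odds ratio of -2.39 ± 0.41 (SE) with an adjusted p of 0.0385. The lower PSI did not come with fewer boundary reads. These numbered 59, 61 and 43 in the controls and 95, 84 and 107 in L-DL KD, or means of 7.81 and 12.5 junction CPM, so each L-DL KD library had more than each control. The reads joining the flanking exons numbered 27, 16 and 23 in the controls and 156, 226 and 235 in L-DL KD, or means of 3.18 and 27.0 junction CPM. That junction skips the 12 nt exon, and the table counts the same reads as the skipping form of that exon. Inclusion of the exon had PSI of 0.948, 0.967 and 0.957 in the controls and 0.735, 0.649 and 0.559 in L-DL KD (adjusted p = 0.0061). In this interval the measured change was therefore in a junction shared with a skipped exon, and the boundary reads alone went the other way. The gene's level was 120 ± 1.17 CPM for controls and 122 ± 3.03 CPM for L-DL KD (mean ± SD, 3 libraries each). Without the first, the second or the third listed control the adjusted p was 0.168, 0.177 and 0.115, without the second or the third listed L-DL KD library 0.135 and 0.139, and without the first 0.0362.

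Sharing a junction with a skipped exon was more general among the lower introns. Of all 1328 tested introns, 119 (8.96%) have a spliced junction that is also the skipping junction of a listed skipped exon. The 12 introns with the smallest p among those lower and without overlap were Idh3g, Capn2 (an intron each of 1026 and 818 nt), Crocc, Dbn1, Hdac3, Cope, Chrd, Robo3, Bcas2, Med24 and Ccdc174, and 6 of these 12 share their junction in this way. They are Idh3g, Hdac3, Cope, Chrd, Bcas2 and Med24, with exons of 12, 80, 101, 94, 51 and 57 nt inside, and in each the skipping counts of exon and intron were the same numbers. None of the 12 introns at the other end did so. Over the whole set, introns with a shared junction gave 6 higher and 14 lower at an unadjusted p under 0.05, and the 1209 others gave 57 and 51. Both lists of 12 were picked by their p, so these counts are descriptions.

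In Cope, a subunit of the coatomer coat of Golgi vesicles, spliced reads numbered 6, 12 and 13 in the controls and 41, 38 and 30 in L-DL KD, while boundary reads overlapped (64, 95 and 71 against 58, 79 and 81). Bcas2, a component of the spliceosome's Prp19 complex, had 4, 2 and 1 spliced reads in the controls and 11, 26 and 18 in L-DL KD, again with overlapping boundary reads. For these 2 intervals the groups differed in the spliced junction and not in the boundaries. Hdac3, a histone deacetylase, had 1, 2 and 0 spliced reads against 11, 8 and 10, with 85, 78 and 90 boundary reads against 55, 96 and 76. In Chrd, which encodes the BMP antagonist chordin, both forms moved, with 18, 0 and 6 spliced reads against 35, 33 and 48 and 53, 48 and 52 boundary reads against 26, 42 and 24. Med24, a Mediator subunit, had PSI of 0.492, 0.425 and 0.373 in the controls and 0.183, 0.214 and 0.239 in L-DL KD, with all 3 L-DL KD libraries lower in boundary reads. Its spliced reads numbered 30, 48 and 68 in the controls and 76, 77 and 83 in L-DL KD, with overlap in junction CPM. Adjusted p was 0.136 to 0.162 for these 5 introns.

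The other 6 of the 12 have no exon inside. Dbn1 encodes drebrin, an actin-binding protein of dendritic spines, and its intron 11 of 319 nt was the best counted of them. Its boundary reads numbered 333, 397 and 376 in the controls and 221, 234 and 194 in L-DL KD, while spliced reads overlapped (398, 391 and 373 against 450, 492 and 346). PSI was 0.295, 0.337 and 0.335 in the controls and 0.197, 0.192 and 0.219 in L-DL KD, without overlap (adjusted p = 0.134). The gene's level did not pass the test (log2 fold change -0.05, adjusted p = 0.660). Crocc encodes rootletin of the ciliary rootlet, and its 341 nt intron had PSI of 0.766, 0.874 and 0.907 against 0.571, 0.496 and 0.667 (adjusted p = 0.124). Robo3, an axon guidance receptor, had PSI of 0.542, 0.788 and 0.742 against 0.329, 0.415 and 0.392 (adjusted p = 0.155) while its gene rose (log2 fold change 1.18, adjusted p = 0.004). In Ccdc174 boundary reads were few, with 11, 23 and 14 against 8, 7 and 4.

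Capn2, the large subunit of calpain 2, a calcium-dependent protease, held the only pair among the 12. Introns 4 and 5 of Capn2-201 are neighbours on chromosome 1. Intron 4 had PSI of 0.479, 0.288 and 0.374 in the controls and 0.130, 0.211 and 0.150 in L-DL KD (log2 odds ratio -1.63 ± 0.40 SE, adjusted p = 0.115). Intron 5 had 0.287, 0.237 and 0.312 against 0.132, 0.162 and 0.128 (log2 odds ratio -1.24 ± 0.34 SE, adjusted p = 0.150). In both introns the groups did not overlap. Most of the difference lay in the spliced reads, which went from 12.5 to 25.9 junction CPM for intron 4 and from 14.7 to 27.5 for intron 5. Boundary reads went from 15.0 to 10.4 and from 11.4 to 9.0 junction CPM, with overlapping groups. Capn2 itself rose (log2 fold change 0.53, adjusted p = 0.0108). Exons of the antisense gene Gm37885 lie across a boundary of both introns, and without a stated use of strand in the counting, reads of Capn2 and of this gene cannot be told apart there.

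The 12 introns with the smallest p among those higher without overlap were Camkv, Dnm1, Gramd1b, Arhgef25, Adam11, Pianp, Slc4a3, Adpgk, Alkbh6, Rpl3, R3hdm1 and Git1. Only Camkv passed the adjusted threshold, and the other 11 had adjusted p from 0.110 to 0.231. Of the 12, 10 are coding introns, and in 9 of these the frame meets a stop codon inside. The exception, intron 14 of Arhgef25, is printed above. It had PSI of 0.182, 0.193 and 0.158 in the controls and 0.274, 0.274 and 0.282 in L-DL KD, with 301, 306 and 225 boundary reads against 492, 410 and 476. As in Camkv, the boundary level was higher in every L-DL KD library than in every control (means of 39.9 and 60.2 junction CPM) while the gene's level did not pass the test (log2 fold change 0.07, adjusted p = 0.569). Its log2 odds ratio was 0.82 ± 0.22 (SE), with an adjusted p of 0.142.

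**Figure D4:**
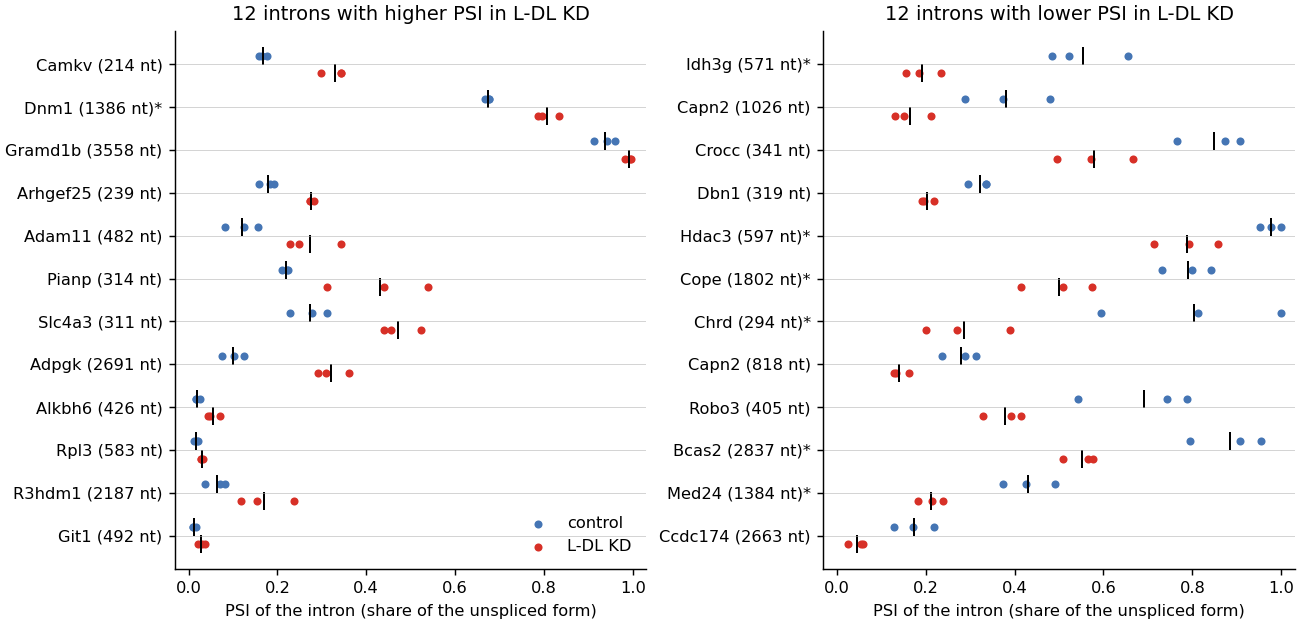
PSI (x axis) in each library for the 12 introns with higher and the 12 with lower PSI in L-DL KD that had the smallest p among introns whose groups did not overlap; blue points are controls, red points L-DL KD, black ticks group means, and an asterisk marks an interval that holds an exon of its own gene. Asterisks stand at 6 of the 12 lower introns and at 1 of the 12 higher ones, and the choice by p means that separation of the colours is no finding.

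In several introns with higher PSI the spliced form moved more than the retained form. Pianp, a neuronal membrane protein, had 80, 81 and 81 boundary reads in the controls and 64, 96 and 82 in L-DL KD, with spliced reads of 151, 142 and 140 against 71, 41 and 52. Its gene fell by 0.99 on the log2 scale. A similar pattern held for Adam11, a catalytically inactive metalloprotease-like protein, whose last intron of 482 nt had 203, 266 and 218 spliced reads against 158, 111 and 71 (gene log2 fold change -0.85). Slc4a3, an anion exchanger, had 113, 91 and 97 spliced reads against 57, 49 and 53 and mean boundary levels of 10.8 and 12.4 junction CPM (gene log2 fold change -0.59). Git1, a synaptic scaffold and Arf GTPase-activating protein, had 461, 523 and 478 spliced reads against 345, 365 and 268 and only 9 to 22 boundary reads in any library (gene log2 fold change -0.63). In Dnm1, the dynamin of synaptic vesicle endocytosis, both forms were lower. The 1386 nt intron is the last in Dnm1-201 and lies in its 3′ UTR, where other transcripts of the gene have exons. Its boundary level went from 122 to 84.1 and its spliced level from 29.7 to 10.2 junction CPM, giving PSI of 0.677, 0.667 and 0.676 against 0.786, 0.834 and 0.796 (adjusted p = 0.110). These 5 genes are among 6 of the 12 whose gene counts fell at an adjusted p under 0.05, the last being R3hdm1 (log2 fold change -0.40).

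Adpgk and Alkbh6 were different again, with more boundary reads in genes that did not pass the test. Adpgk, an ADP-dependent glucokinase, had 5, 7 and 10 boundary reads in the controls and 17, 25 and 23 in L-DL KD across a 2691 nt intron, with PSI of 0.0746, 0.101 and 0.125 against 0.362, 0.309 and 0.291. Alkbh6 had 10, 7 and 5 boundary reads against 17, 20 and 28. Rpl3, a protein of the large ribosomal subunit, had by far the most reads of the 12, with 81, 77 and 46 boundary reads and 1725 to 2022 spliced reads in the controls against 109, 112 and 122 and 1763 to 1890 in L-DL KD. Its PSI stayed low in both groups, with means of 0.0175 and 0.0304. Gramd1b, a sterol transfer protein of the endoplasmic reticulum, was at the other end, with 10, 14 and 7 spliced reads in the controls and 3, 1 and 1 in L-DL KD, so that its large log2 odds ratio of 2.66 ± 0.66 (SE) rests on few reads.

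**Figure D5:**
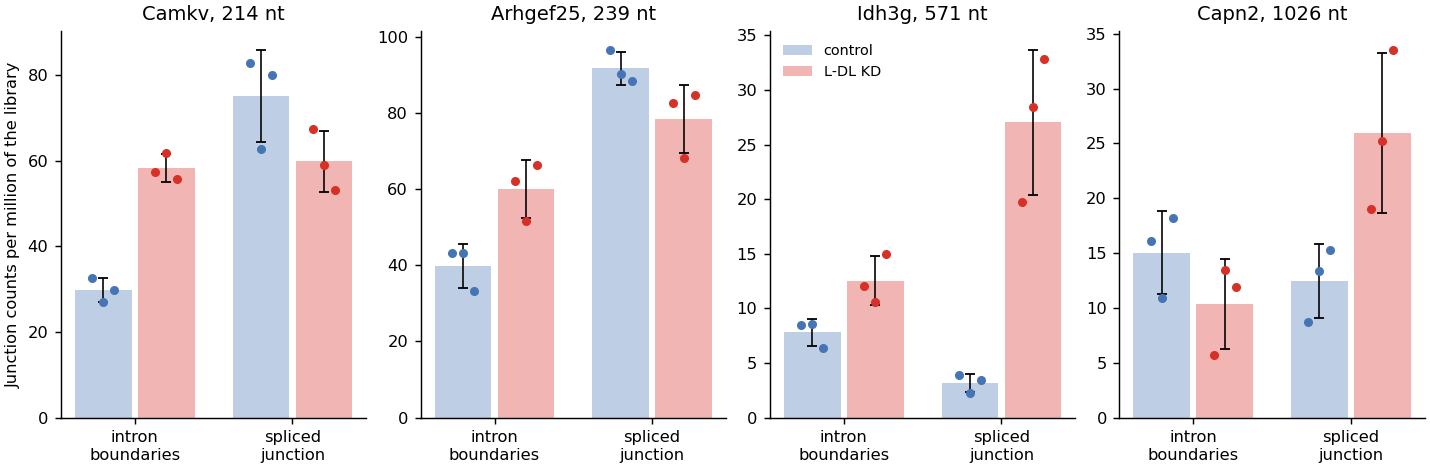
Reads across the intron boundaries and across the spliced junction (y axis, junction CPM, counts scaled to the junction total of the library) for 4 introns; points are libraries, and bars are the mean ± SD of 3 libraries. Boundary reads are higher in L-DL KD for Camkv and Arhgef25, whereas in Idh3g the spliced junction goes from 3.18 to 27.0 junction CPM and in Capn2 from 12.5 to 25.9.

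The same split was seen over all introns whose groups did not overlap. Of the 122 with higher PSI, the boundary level in junction CPM was itself higher without overlap in 47, and the spliced level was lower without overlap in 64. Of the 115 with lower PSI, the boundary level was lower in 62 and the spliced level higher in 45. Since PSI is a ratio of these 2 values, the counts describe which form carried it and are no test. Among 23 of the 115 that hold an exon of their own gene, 14 had a higher spliced level and 10 a lower boundary level, and among the remaining 92 these counts were 31 and 52.

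Host genes were read out from the separate gene counts. Of 1030 tested host genes, 165 rose (16%) and 175 fell (17%) in L-DL KD at an adjusted p under 0.05, where all 17621 genes gave 15.6% and 15%. The introns of genes that fell were higher more often than lower at an unadjusted p under 0.05 (17 and 8 of 224), and the introns of genes that rose were lower more often (12 against 6 of 213). Genes that passed in neither direction gave 40 and 45 of 886. Across 1323 introns the Spearman correlation between the log2 odds ratio and the host gene's log2 fold change was -0.120. This is a description across introns, and both values come from the same 6 libraries. Neuron markers fell and microglia markers rose in those libraries, as given above.

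A total of 220 genes had 2 or more tested introns, up to 5 in Mroh1, Mrps17 and Gas5. In 105 of them all introns differed in the same direction, whatever their p. Of the 165 genes with exactly 2, this was so in 93. Unrelated signs of 2 introns would agree about as often as not, and no test was made. In 7 genes at least 2 introns had an unadjusted p under 0.05, namely Gramd1a, Capn2, Dpp7, Mrgbp, Thbs3, Sik2 and Agrn, which were picked by that p. Both introns of Capn2 and both of Thbs3, a secreted thrombospondin, were lower. In Thbs3 they had PSI of 0.515, 0.833 and 0.477 against 0.379, 0.214 and 0.253 (797 nt) and of 0.848, 0.704 and 0.938 against 0.568, 0.595 and 0.519 (242 nt). Agrn, which encodes agrin, the organiser of synaptic receptors, held 1 intron in each direction. Its 736 nt intron had PSI of 0.338, 0.198 and 0.329 against 0.353, 0.562 and 0.850 (adjusted p = 0.349), and its 412 nt interval, which holds an exon of the gene, had 0.458, 0.490 and 0.569 against 0.327, 0.390 and 0.372 (adjusted p = 0.369). Gramd1a, Dpp7, Mrgbp and Sik2 likewise had introns in both directions.

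No intron of the 3 lists of splicing factor genes passed the test. The list of SR proteins and splicing kinases had 22 tested introns in 13 genes, with a median control PSI of 0.556 against 0.158 over all tested introns and a median log2 odds ratio of -0.01 (0.05 over all). In edgeR's test, 0 passed an adjusted and 0 an unadjusted p under 0.05, and 3 had groups apart. Its best counted introns were in Srsf5, an SR protein, and Snrnp70, a U1 snRNP protein that the list also holds. Srsf5 intron 5, of 1229 nt, had PSI of 0.623, 0.634 and 0.724 in the controls and 0.445, 0.741 and 0.652 in L-DL KD, whereas the neighbouring intron 4, of 201 nt, stayed at or under 0.0042 in every library. The 2306 nt intron of Snrnp70 had mean PSI of 0.986 and 0.987.

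The kinases Clk1, Clk2 and Clk3, which phosphorylate SR proteins and are themselves known for retained introns, gave overlapping groups in most introns. Clk1 had PSI of 0.917, 0.885 and 0.943 in the controls and 0.966, 0.928 and 0.925 in L-DL KD across 1349 nt. The 691 nt intron of Clk2 had 0.285, 0.231 and 0.237 against 0.391, 0.375 and 0.344, without overlap and with an adjusted p of 0.447. The list of hnRNP genes, which also holds other RNA-binding proteins, had 8 tested introns in 6 genes, with a median control PSI of 0.896. Of these introns, 0 passed an unadjusted p under 0.05 or had groups apart. Ddx5, an RNA helicase, was the best counted of that list, with PSI of 0.467, 0.439 and 0.507 against 0.422, 0.552 and 0.567 across the 1265 nt of its intron 11, which contains a small RNA gene. The intron of Hnrnpk had mean PSI of 0.0131 and 0.0151, and that of Hnrnph1 0.891 and 0.915. The list of U2 snRNP and U2AF genes also holds Prpf40b and Rbm25, which are not subunits of either. It had 7 tested introns with 0 at an unadjusted p under 0.05, and 1 higher and 1 lower had groups apart. Sf3b1, the largest subunit of the U2 snRNP's SF3b complex, had PSI of 0.551, 0.462 and 0.478 against 0.370, 0.470 and 0.557, with overlap. The higher one with groups apart, in the U2AF-related U2af1l4, had 0.634, 0.60 and 0.50 against 0.733, 0.80 and 0.750 (adjusted p = 0.404). The lower one was in Ddx46, an RNA helicase, with 0.508, 0.437 and 0.436 against 0.286, 0.278 and 0.366 (adjusted p = 0.462). Prpf40b (210 nt) and Rbm25 had mean PSI of 0.151 and 0.230 and of 0.383 and 0.483, with overlapping groups.

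Synapse genes gave 13 tested introns in 11 genes, of which 1 rose at an adjusted p under 0.05, namely Camkv. At an unadjusted p under 0.05, 6 were higher and 1 lower, where all long introns gave 4.74% and 4.89%, and 6 and 1 had groups apart, with Camk2g in place of Grm2. The median log2 odds ratio was 1.08, against 0.05 over all tested introns. The list holds genes that the study discusses, Camkv, Git1 and Agrn among them, and was drawn up with earlier results known, so it is not independent evidence of a direction. Besides Camkv, Dnm1, Git1 and the 736 nt intron of Agrn, the higher ones were in Unc13a, a priming factor of synaptic vesicles, and Grm2, a metabotropic glutamate receptor. The 319 nt intron of Unc13a had 15, 11 and 28 boundary reads in the controls and 27, 32 and 49 in L-DL KD, with PSI of 0.0598, 0.0453 and 0.0886 against 0.105, 0.119 and 0.234 (adjusted p = 0.309). That of Grm2 had 3, 0 and 4 spliced reads against 0, 1 and 0, and its groups overlapped in PSI. Slc17a7, the vesicular glutamate transporter and the best counted synapse gene, had PSI between 0.0031 and 0.0140 in all 6 libraries with overlapping groups (adjusted p = 0.583), and the counts of its gene fell (log2 fold change -0.49). Neuron markers fell in the same libraries, with sums given above, and their part in the synapse introns was not tested.

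The remaining lists held few introns. The cytoskeleton list had 1 tested intron, in Sptan1 (the neuronal spectrin alpha chain), with 66, 63 and 68 boundary reads in the controls and 75, 86 and 59 in L-DL KD and PSI of 0.0325, 0.0283 and 0.0320 against 0.0399, 0.0462 and 0.0374 (adjusted p = 0.50). Of the neuron markers, only Slc17a7 and Eno2, the neuronal enolase, have a tested intron, and Eno2 had mean PSI of 0.0885 and 0.0957 with overlapping groups. No microglia, astrocyte or oligodendrocyte marker has a listed intron longer than 200 nt.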

How the data were processed

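Hippocampal RNA of 3 control and 3 L-DL KD samples was sequenced by the authors. Raw read counts per gene were deposited by the authors, without normalization (HISAT2 2.1.0 and HTSeq 0.6.1, genome mm10, per the submitters' processing notes, which also name Bowtie 1.1.2). The authors also deposited rMATS junction counts of each splicing event, 3 libraries a cell, for the inclusion and the skipping form. In that table the libraries carry no replicate numbers and are given in its order. Its columns with the authors' own PSI, p-values, FDR and PSI differences were not used.

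Introns longer than 200 nt were taken from the retained-intron events, and PSI was computed from both counts and their effective lengths. Junction counts of all 5 event types were fitted together with edgeR (version 4.0.16, R 4.3.3) on 12 columns (both forms of every library), with library terms, a term for the form and the form's change in L-DL KD. An event was kept where it averaged 20 or more counts a library and 1 or more of either form. Genes reaching 10 counts in 3 or more libraries were tested on TMM-scaled counts by the quasi-likelihood method of edgeR. Adjusted p is Benjamini-Hochberg over all events or genes tested, at 0.05. Two-sided exact permutation tests served to compare library medians (scipy 1.17.1). Introns were placed on GENCODE M21 transcripts (GRCm38). Junction CPM is scaled to the sum of all junction counts of a library. In simulated data the event model called 102 of 182 changed events (56.0%) and 2 unchanged ones. The planted changes all had the same size, larger than that of Camkv, and every event had the same spread. The share called therefore does not hold for smaller changes.

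Replicate numbers did not pair the samples in the gene counts (correlations of deviations 0.0537, 0.127 and -0.107). The named introns are Camkv intron 4, the 12 higher and 12 lower introns with the smallest p among those without overlap between groups, the 6 highest and 4 lowest in the controls, and, of each gene list, the 3 with the most counts. Others named (Thbs3, Agrn, Trafd1, Clk1, Clk2, U2af1l4, Ddx46, Camk2g, Unc13a, Grm2, Gramd1a, Dpp7 and the genes with the minor-class 5′ end) were chosen after their values were seen. Members and lists were chosen with earlier results of these data known. Alternatives were other count minimums (10 and 50), retained introns fitted alone, limma (version 3.58.1) on log2 ratios with a pseudocount of 0.5, DESeq2 (version 1.42.0), an unadjusted p under 0.001, 1 event per intron, PSI without effective lengths, means for medians, library size for TMM, no filter on genes, the replicate number as a block, and each library left out in turn.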

Additional observations from a re-analysis of the deposited data

How the results depend on the processing

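The number of introns past an adjusted p of 0.05 was 1 higher and 1 lower. It did not change with a minimum of 10 or 50 counts, with DESeq2 or for an unadjusted p under 0.001 instead. The setting with 1 event per intron kept all 1328 introns and could not change it. With retained introns fitted alone it was 3 higher and 4 lower, adding Gramd1b and Adam11 to the higher and the 1026 nt intron of Capn2, Crocc and Chrd to the lower, where fewer events shared the estimate of the spread and the adjustment. With limma it was 0 and 0, where 84 and 80 had an unadjusted p under 0.05, and Camkv and Idh3g had adjusted p of 0.167 and 0.147. Leaving out 1 library gave 0 to 1 in each direction, with 1 each only without the first listed L-DL KD library and, in the others, 42 to 59 higher and 44 to 51 lower at an unadjusted p under 0.05. Of the 24 introns picked for small p, none changed direction with 10 counts, limma, DESeq2, retained introns fitted alone or a library left out. Neither did the 23 that reach 50 counts. All 24 were chosen as introns without overlap between groups. Leaving out a library or refitting the same counts could hardly reverse them, so this stability is no support. Without introns that hold an exon of their gene, an alternative chosen after seeing the data, 1 higher and 0 lower remained of 1189, with 55 and 48 at an unadjusted p under 0.05.

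The change of the library median PSI ran from -0.0033 to 0.0063 and the change of the long-minus-short gap from -0.0155 to -0.0032 over all alternatives. PSI without effective lengths could not change the median of long introns, since all 1328 share the lengths of 298 and 149 nt. The exact permutation p of the gap was 0.1, the smallest the design allows, with a minimum of 10 and of 50 counts, against 0.2 with 20. The numbers of higher and lower host genes were 147 and 154 with the replicate block, 195 and 155 with library size in place of TMM, and 168 and 178 with DESeq2. Leaving out a library gave 112 to 226 higher and 104 to 212 lower, the lowest being 108, 111 and 104 lower without control replicate 1, 2 and 3. No paired analysis of the splicing counts was possible, because the splicing table carries no replicate numbers. Introns with 20 to under 50 counts passed an unadjusted p under 0.05 in 6.69% of cases and those with 200 or more in 12.3%. These classes also differ in control PSI (medians 0.234 and 0.0737), and the part of depth was not tested.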
